A study of Mus musculus with 39 samples.

Results

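The glucocorticoid receptor, encoded by Nr3c1, and 7 genes known as its targets or partners in liver were followed in liver RNA of 39 mice. The genes were Fkbp5, Tsc22d3, Sgk1, Tat, Tdo2, Hsd11b1 and Zbtb16. Members were the array probes, controls apart, whose RefSeq transcript belongs to one of these 8 genes. In all, 7 of the 8 genes were measured, of 17016 genes on the arrays, by 14 of the 24375 probes tested. Zbtb16, a transcriptional repressor, had 0 such probes and is not described further. Where a gene had several probes, the one with the highest mean brightness of both channels over all arrays stood for it (A_52_P138090 for Nr3c1, A_51_P383689 for Fkbp5, A_51_P235821 for Tsc22d3, A_51_P118237 for Sgk1, A_51_P228574 for Tat, A_51_P452625 for Tdo2 and A_51_P127297 for Hsd11b1).

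Corticosterone, the main glucocorticoid of mice, enters hepatocytes and binds a receptor that chaperones hold in the cytosol. The loaded receptor moves to the nucleus, binds palindromic DNA elements and raises transcription of genes for amino acid breakdown and gluconeogenesis, together with genes that restrain the hormone's own action. In liver, 11-beta-hydroxysteroid dehydrogenase 1 makes active hormone from its inert keto form, so that the local supply does not depend on blood levels alone.

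All mice were singly housed C57BL/6J males, 5 to 6 weeks old by the study's methods before the regimens. AggE mice spent 6 hrs a day in a mesh cage within the home cage of an SJL aggressor, with up to 3 bodily contacts per session, and Ctrl mice followed the same schedule with no aggressor present. The paper states that mice met the aggressor cue in a partition test before sampling, and does not name Ctrl mice there. Ctrl mice went through the cage sessions in any case, so their livers were not from undisturbed mice. Livers were taken 24 hrs post-5-day stressor (4 Ctrl, 5 AggE), 24 hrs post-10-day stressor (4 Ctrl, 5 AggE), 1.5 wks post-5-day stressor (4 Ctrl, 5 AggE) and 4 wks post-10-day stressor (6 Ctrl, 6 AggE). Some labels name another regimen than the source field, which was used here: a single day is named for the AggE livers of the early 5-day point, and titles at 1.5 wks point to 10 days for AggE and for Ctrl replicate 4. Each liver RNA was labeled with Cy-5 and hybridized to 1 array against a Cy-3 labeled reference RNA from mouse cell lines, with no dye swap.

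Values are log2 ratios of liver to reference after normalization, so 0 means that liver RNA and reference were equally bright. The share of probes well above background in Cy-5 ran from 15.18% to 70.4% of spots per array. It was lowest among the arrays at 1.5 wks and 24 hrs post-5-day stressor (medians of 22.43% to 29.75%) and highest at 4 wks (51.68% and 53.36%). All 5 measured hepatocyte markers (Alb, Ttr, Apoa1, Cyp2e1 and Ass1) were well above background on every array. Arrays lay on 11 slides. All 24 hr arrays were scanned on one day and all 4 wk arrays on another, so that rest and scan day cannot be told apart between those levels. At 1.5 wks 4 AggE and 3 Ctrl arrays shared the day of the 24 hr arrays, and 1 of each shared that of the 4 wk arrays. At both 24 hr points no slide held Ctrl and AggE arrays together, so that slide and exposure cannot be told apart there. On 5 of the 39 arrays the hepatocyte markers were raised in Cy-3, the reference channel, by 1.09 or more on the log2 scale above the median array, while the other 34 arrays lay at 0.8 or less. The 5 arrays were all AggE (replicate 5 of each 24 hr point, with replicates 1, 2 and 3 of the 4 wk point) and 0 were Ctrl.

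Promoter sequences of the genes that stood out below, and of the member that carries the receptor's own recognition palindrome, are shown for the letters of that element which they hold. They are the 250 bases before a transcription start, from RefSeq on GRCm38.p6, 5′ to 3′ on the gene's strand, with each copy of the hexamer AGAACA or of its reverse complement TGTTCT in capitals. Sgk1 is read from chr10:21993640-21993889 (+), Tdo2 from chr3:81975729-81975978 (-) and Hsd11b1 from chr1:193242361-193242610 (-).
Sgk1, start 5: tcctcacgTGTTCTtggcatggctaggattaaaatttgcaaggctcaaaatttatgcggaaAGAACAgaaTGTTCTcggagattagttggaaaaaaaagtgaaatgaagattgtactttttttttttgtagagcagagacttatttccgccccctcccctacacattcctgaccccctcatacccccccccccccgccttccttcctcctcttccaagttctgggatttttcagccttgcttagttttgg
Tdo2: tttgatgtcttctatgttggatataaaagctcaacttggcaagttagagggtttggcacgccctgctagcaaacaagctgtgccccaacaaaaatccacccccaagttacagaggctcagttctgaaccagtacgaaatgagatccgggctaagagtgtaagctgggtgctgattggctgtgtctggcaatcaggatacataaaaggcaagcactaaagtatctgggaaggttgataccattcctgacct
Hsd11b1: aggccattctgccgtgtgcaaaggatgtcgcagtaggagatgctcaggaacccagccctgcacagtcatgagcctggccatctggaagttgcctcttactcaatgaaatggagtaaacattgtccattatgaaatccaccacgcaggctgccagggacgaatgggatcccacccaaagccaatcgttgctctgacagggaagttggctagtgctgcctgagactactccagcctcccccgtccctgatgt
The Sgk1 window held 3 hexamers, of which a pair formed the full palindrome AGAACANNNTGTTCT, beginning 189 bases before the start. The palindrome was in 3 of 32851 RefSeq promoters of this length (0.00913%), and a hexamer on either strand in 16.1%. Among 13 promoters of 6 members in the table, 4 held a hexamer (3 of Sgk1 and 1 of Tsc22d3). No hexamer lay in the Tdo2 or Hsd11b1 window, which says only that these letters are not in these 250 bases.

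Few differences between AggE and Ctrl livers passed the test among the member genes. Of the 7 measured, Tdo2 at 4 wks post-10-day stressor was the only gene whose standing probe passed the adjusted test at any point, and it was lower in AggE (0.542-fold). It did not pass without the 3 arrays of that group with raised reference markers (log2 fold change -0.44, SE 0.26, limma adjusted p = 0.489), and its difference was -0.26 in the liver channel against 1.39 in the reference channel. Hsd11b1 at 1.5 wks had the largest difference in size, 2.15-fold higher in AggE, and did not pass. At 24 hrs post-5-day stressor 0 of 7 members were called by limma at an adjusted p of 0.05 or less, where 3.74% of all probes were, and without adjustment 1 of 7 was lower (Fkbp5, whose probe was not well above background on any array of either group), where 17.8% of all probes passed. At 24 hrs post-10-day stressor limma called 0 of 7 adjusted and 0 of 7 unadjusted, beside 0.0821% and 2.88% of all probes. At 1.5 wks post-5-day stressor limma called 0 of 7 adjusted, beside 0% of all probes, and 1 of 7 was higher unadjusted (Hsd11b1), beside 2.32%. At 4 wks post-10-day stressor 1 of 7 was lower both adjusted and unadjusted (Tdo2), beside 3.38% and 20.4% of all probes. With 7 genes counted, 0 or 1 call did not stand apart from the shares over all probes.

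**Figure D1:**
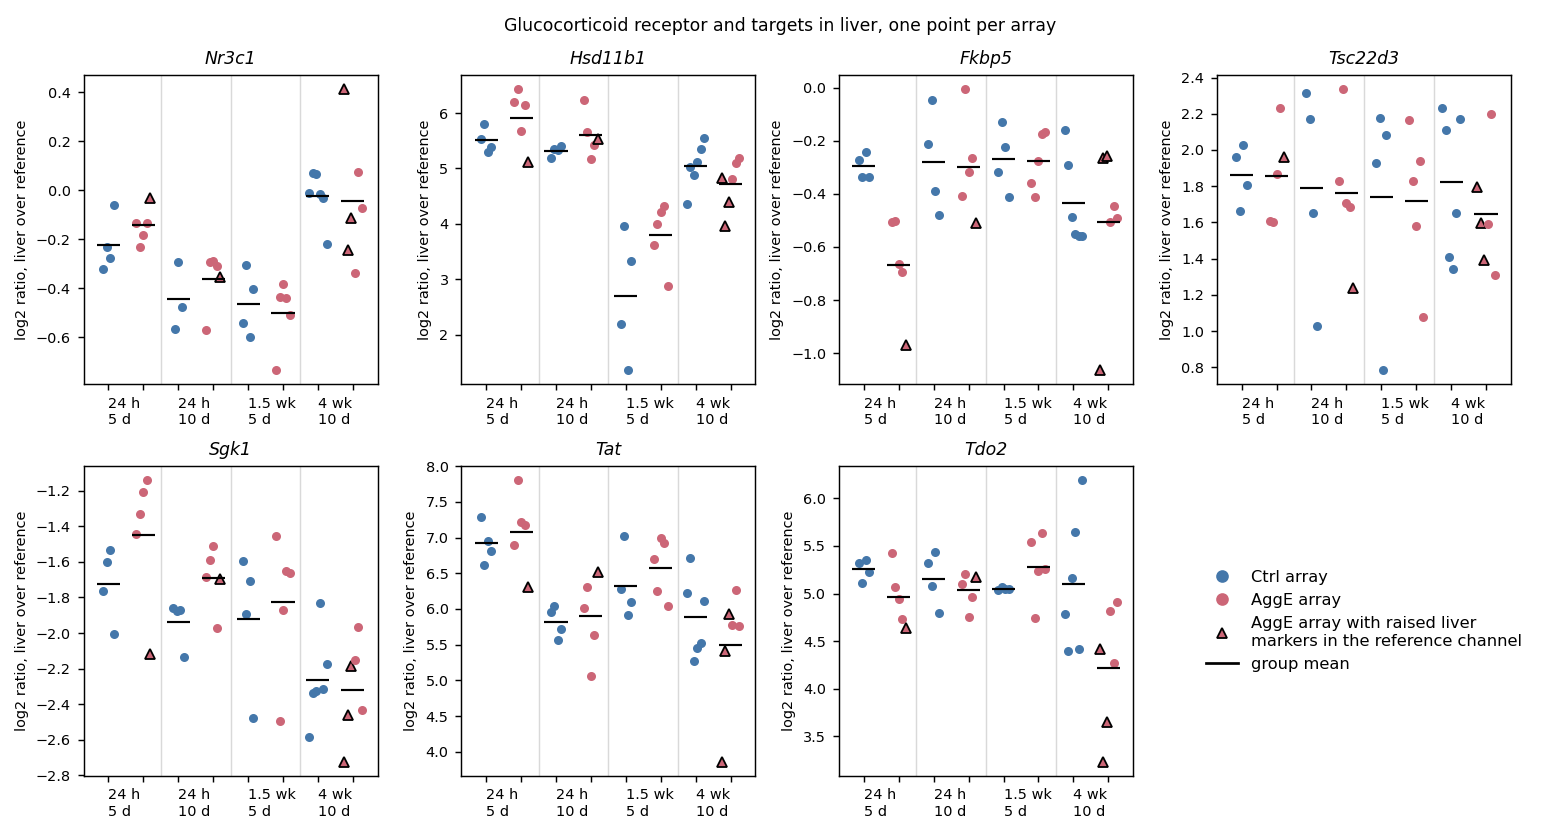
Log2 ratio of liver over reference (vertical axes, which do not start at 0 and differ by gene) for the 7 measured members, with 1 point per array, Ctrl in blue and AggE in red, by time point along the horizontal axis. Horizontal bars are group means, and outlined triangles are the 5 AggE arrays with raised hepatocyte markers in the reference channel. Ctrl and AggE points overlap for every gene and point except Fkbp5 at 24 hrs post-5-day stressor, where its probe was well above background on 0 arrays. The share of all probes whose groups separate was not counted.

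Directions were mixed at the early points. At 24 hrs post-5-day stressor 4 members were higher and 3 lower in AggE by value, with a median log2 fold change of 0.08. The later 24 hr point had the same split of 4 and 3 (median 0.08), and so had 1.5 wks (median 0.09). At 4 wks all 7 had values below 0, with a median of -0.17, and 6 of the 7 did not pass the test. That common sign did not hold under other settings, and the cause was not tested. With the processed signals Sgk1 was at 0.334 and Hsd11b1 at 0.153. Without the raised arrays Sgk1 was at 0.08, Tat at 0.05 and Hsd11b1 at -0.01, and with Cy-5 alone Fkbp5 (0.018), Tsc22d3 (0.007), Sgk1 (0.117), Tat (0.233) and Hsd11b1 (0.161) were above 0. Over all probes tested, 50.3%, 47.8%, 48.1% and 53.7% had values above 0 at these points in turn.

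Nr3c1, the receptor itself, showed no difference that passed at its standing probe. At 24 hrs post-5-day stressor its log2 ratios were -0.32, -0.23, -0.28 and -0.06 in Ctrl and -0.13, -0.23, -0.18, -0.13 and -0.03 in AggE. The ranges overlapped, and the log2 fold change was 0.08, with a 95% interval of -0.13 to 0.29. At 24 hrs post-10-day stressor it was 0.08 (-0.14 to 0.31), with 3 Ctrl arrays because the spot of Ctrl replicate 3 was marked as an outlier. At 1.5 wks it was -0.04 (-0.24 to 0.17), with the probe well above background on only 4 of 5 AggE and 2 of 4 Ctrl arrays. At 4 wks it was -0.02 (-0.2 to 0.16). These intervals come from the fit without slides. With the slide as a fixed block the 4 wk value was 0.368 (limma adjusted p = 0.133), and within slide 9 the 1 AggE array, a raised one, stood 0.5 above the mean of 3 Ctrl arrays. By group mean, Nr3c1 was highest in Ctrl at 4 wks (-0.02 ± 0.11, SD, n = 6) and lowest in AggE at 1.5 wks (-0.5 ± 0.14, SD, n = 5). Most arrays of these groups were scanned on different days.

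The receptor's 3 other probes did not all follow this pattern. A_52_P63106 was lower in AggE at 24 hrs post-5-day stressor (limma adjusted p = 0.0371), although it was well above background on only 0 of 5 AggE and 1 of 4 Ctrl arrays, so that its size is no measured fold. Log2 ratios were -0.09, 0.12, -0.15 and -0.21 in Ctrl and -0.21, -0.52, -0.41, -0.37 and -0.77 in AggE, so the highest AggE and the lowest Ctrl mouse nearly met, and AggE replicate 5 was lowest. With the 5 raised arrays left out, of which AggE replicate 5 belongs to this comparison, the log2 difference was -0.3 against -0.38 with all arrays, and the limma adjusted p was 0.0546. A_52_P254174 gave -0.01 in the same comparison, and A_51_P355693 was well above background in neither group. Between probes of Nr3c1 the correlation of log2 ratios, over the arrays with a value for both, ran from 0.04 to 0.47. This is a description only, as the arrays share normalization and slides.

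Hsd11b1, the enzyme that regenerates active hormone, varied most among the members between groups of mice. At 1.5 wks its log2 ratios were 2.19, 3.96, 1.36 and 3.33 in Ctrl and 3.62, 4.01, 4.21, 4.32 and 2.88 in AggE. Ctrl replicates 1 and 3 lay below all AggE mice, whereas Ctrl replicate 2 lay above 2 of the 5, so the groups overlapped. The log2 fold change was 1.1 (SE 0.35, 95% interval 0.39 to 1.82), with an unadjusted limma p of 0.00357 and an adjusted p of 1. The difference was in the liver channel, where mean Cy-5 levels were 10.57 in AggE and 9.69 in Ctrl on the log2 scale, against 6.76 and 6.88 in Cy-3, and no array at this point had raised markers in the reference.

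Slides divided this comparison. Only slide 7 held both exposures, with AggE replicate 5 at 2.88 and Ctrl replicates 1 to 3 at 1.36 to 3.96 (mean 2.5), a difference of 0.38. With the slide as a fixed block the log2 fold change was 0.231, and within the first scan day (4 AggE, 3 Ctrl) it was 1.26. The slide's part was not tested. The summed Cy-5 signal of the 5 hepatocyte markers at 1.5 wks was 15.22 to 15.8 in Ctrl and 15.73 to 16.51 in AggE on the log2 scale, below the 16.59 to 17.42 of the other groups, and their part in the result was not tested. In whole liver, fewer cells of a type and less RNA per cell cannot be told apart.

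At the other points Hsd11b1 was higher by value in AggE early and lower late, without passing the test, and each direction turned under other settings. Without normalization between arrays it was -0.443 at 24 hrs post-5-day and -0.245 at 24 hrs post-10-day, the latter also turning with the processed signals (-0.05), and at 4 wks it was 0.149 to 0.161 with the series table, the processed signals or Cy-5 alone. Log2 ratios were, at 24 hrs post-5-day stressor, 5.52, 5.8, 5.31 and 5.39 in Ctrl and 6.2, 6.44, 5.68, 6.15 and 5.11 in AggE. The overlap came from AggE replicates 3 and 5, and replicate 5 is an array with raised reference markers. The log2 fold change was 0.41 (-0.3 to 1.13), and 0.61 (SE 0.36) without that array. At 24 hrs post-10-day stressor Ctrl mice lay between 5.2 and 5.41, the narrowest Ctrl group, and AggE mice were at 6.24, 5.65, 5.17, 5.42 and 5.54. Replicate 1 was highest and replicate 3 fell below every Ctrl mouse, with a log2 fold change of 0.28 (-0.43 to 1). By 4 wks the lowest, median and highest values were 4.36, 5.07 and 5.54 in Ctrl and 3.96, 4.81 and 5.19 in AggE, overlapping over most of their range. Their log2 fold change of -0.33 (-0.95 to 0.28) became -0.01 without the raised arrays, on which Hsd11b1 stood at 8.77, 8.51 and 7.72 in the reference channel against 6.47 to 6.6 on the other AggE arrays. Group means ranged from 5.92 ± 0.53 (SD, n = 5) in AggE at 24 hrs post-5-day stressor to 2.71 ± 1.16 (SD, n = 4) in Ctrl at 1.5 wks, groups on different slides.

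Fkbp5, a co-chaperone that lowers the receptor's affinity for hormone and is induced by it, had separate groups at 24 hrs post-5-day stressor. Its log2 ratios were -0.27, -0.34, -0.24 and -0.34 in Ctrl and -0.51, -0.5, -0.66, -0.69 and -0.97 in AggE. Every AggE array lay below every Ctrl array, and the share of all probes so separated was not counted. The difference did not pass (limma adjusted p = 0.0835, and 0.0665 without the raised arrays, among them AggE replicate 5, the lowest), and the probe was well above background on 0 arrays of either group, so no fold is given for it. Cy-5 levels were 6.89 to 7.13 in AggE and 7.22 to 7.35 in Ctrl.

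The choice of this probe was close. A_52_P481493 had the same mean brightness over both channels to 2 decimals (7.32 on the log2 scale) but was brighter in Cy-5 (7.6 against 7.2) and dimmer in Cy-3 (7.02 against 7.45), and was well above background on 32 of 39 arrays against 13. At 24 hrs post-5-day stressor it gave 0.12 (-0.48 to 0.73) in log2 fold change and -0.03 without the raised array, and A_52_P337899 was also not well above background in either group. At 4 wks, where both were well above background on all arrays, A_52_P481493 was at -0.59 (SE 0.26, limma adjusted p = 0.184) and A_52_P337899 at 0.22 (SE 0.08, limma adjusted p = 0.1). The latter became 0.06 without the raised arrays. Correlations between the 3 probes over the arrays lay between -0.16 and 0.11, so the probes give no common Fkbp5 level. The standing probe gave -0.07 at 4 wks and -0.02 at 24 hrs post-10-day stressor. After 1.5 wks it was again too dim on all arrays to count as well above background.

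Tsc22d3, which encodes the anti-inflammatory leucine zipper protein GILZ, showed no difference that passed at any point. Median log2 ratios at 24 hrs post-5-day stressor were 1.88 in Ctrl and 1.87 in AggE, and at 24 hrs post-10-day stressor they were 1.91 in Ctrl and 1.71 in AggE. After 1.5 wks the medians were 2 in Ctrl and 1.83 in AggE, and after 4 wks 1.88 in Ctrl and 1.59 in AggE. The ranges overlapped at each point. Single mice spread more widely than these medians. Ctrl replicate 4 was at 1.03 among Ctrl mice of up to 2.32 at 24 hrs post-10-day stressor, and Ctrl replicate 3 at 0.78 among Ctrl mice of up to 2.18 at 1.5 wks. The log2 fold changes were -0.01 (-0.55 to 0.53), -0.03 (-0.57 to 0.51), -0.03 (-0.57 to 0.51) and -0.17 (-0.64 to 0.29) in the same order. The other probe, A_52_P600518, gave -0.44 at 24 hrs post-5-day stressor (SE 0.21, limma adjusted p = 0.26), and its correlation with the standing probe over the arrays was 0.51.

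Sgk1, a kinase that acts on ion transport and cell survival, was below the reference in every group. At 24 hrs post-5-day stressor its log2 ratios were -1.76, -1.6, -1.54 and -2.01 in Ctrl and -1.45, -1.33, -1.21, -1.14 and -2.12 in AggE. AggE replicates 1 to 4 lay above all Ctrl mice, and AggE replicate 5, with raised reference markers, lay below all of them. The log2 fold change was 0.28 (-0.11 to 0.67), and 0.44 (SE 0.18, limma adjusted p = 0.164) without that array. At 24 hrs post-10-day stressor Ctrl mice were at -1.86, -1.88, -1.87 and -2.14 and AggE mice at -1.69, -1.59, -1.51, -1.97 and -1.69. Of the 5 AggE mice, 4 lay above every Ctrl mouse, and replicate 4 lay below 3 of the 4 Ctrl mice. This gave a log2 fold change of 0.24 (-0.14 to 0.63), 0.09 (-0.3 to 0.48) at 1.5 wks and -0.06 (-0.39 to 0.28) at 4 wks, the last turning to 0.08 without the raised arrays. At 1.5 wks the probe was well above background on only 2 of 5 AggE and 2 of 4 Ctrl arrays. By group mean, Sgk1 ran from -1.45 ± 0.39 (SD, n = 5) in AggE at 24 hrs post-5-day stressor to -2.32 ± 0.27 (SD, n = 6) in AggE at 4 wks, groups scanned on different days.

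Tat, tyrosine aminotransferase, which starts tyrosine breakdown and is a classic hormone-induced enzyme of liver, was strongly above the reference everywhere. At 24 hrs post-5-day stressor its log2 ratios were 7.28, 6.62, 6.96 and 6.81 in Ctrl and 6.9, 7.81, 7.22, 7.18 and 6.31 in AggE. The groups overlapped, and the log2 fold change was 0.17 (-0.56 to 0.89), or 0.36 (SE 0.29) without the raised array. At 24 hrs post-10-day stressor Ctrl mice were at 5.95, 6.04, 5.56 and 5.71 and AggE mice at 6.01, 6.3, 5.06, 5.63 and 6.52. AggE mice surrounded the Ctrl mice on both sides. This gave 0.09 (-0.63 to 0.81), which turned to -0.07 without the raised array, and 0.25 (-0.47 to 0.98) at 1.5 wks. At 4 wks the lowest, median and highest log2 ratios were 5.27, 5.81 and 6.72 in Ctrl and 3.86, 5.77 and 6.26 in AggE. AggE replicate 1, at 3.86, stood apart from the others, and the log2 fold change of -0.38 (-1 to 0.24) was 0.05 (SE 0.29) without the 3 raised arrays. With the slide as a fixed block it was -1.606 (SE 0.404, limma adjusted p = 0.0248), which passed, and as a random block -0.813 (limma adjusted p = 0.276).

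Tdo2, tryptophan 2,3-dioxygenase, which opens tryptophan to the kynurenine pathway, was lower in AggE at 4 wks. The log2 ratios in Ctrl were 4.79, 4.39, 5.17, 5.65, 4.42 and 6.19, and those in AggE were 4.42, 3.24, 3.65, 4.82, 4.27 and 4.91. AggE replicates 2, 3 and 5 lay below every Ctrl mouse, replicate 2 lowest, and the other 3 AggE mice lay within the range of Ctrl. The log2 fold change was -0.88 (SE 0.24, 95% interval -1.38 to -0.39), with a limma adjusted p of 0.0405. On the other probe, A_52_P404341, Ctrl mice ran from 4.26 to 5.15, and AggE mice were at 3.54, 3.01, 3.84, 4.96, 4.61 and 4.47. There AggE replicates 1, 2 and 3 lay below every Ctrl mouse and the other AggE mice among them, and the AggE minus Ctrl difference was -0.67 on the log2 scale (SE 0.28, limma adjusted p = 0.173).

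The 2 channels were then read apart, after normalization of each channel's levels between arrays. In the reference channel, which by the labels carries the same RNA on every array, Tdo2 was at 8.65, 8.32 and 7.44 on AggE replicates 1, 2 and 3, against 5.14, 5.26 and 5.33 on AggE replicates 4 to 6 and 5.06 to 5.71 on the Ctrl arrays. In the liver channel the means were 11.53 ± 0.55 in AggE and 11.78 ± 0.65 in Ctrl (SD, n = 6 each), a difference of -0.26, whereas the Cy-3 means differed by 1.39 (6.69 ± 1.64 and 5.3 ± 0.27, SD, n = 6 each). For A_52_P404341 the liver channel differed by 0.01 and the reference channel by 1.54. Without the 3 raised arrays the Tdo2 log2 fold change was -0.44 (SE 0.26, limma adjusted p = 0.489) and that of A_52_P404341 -0.06 (limma adjusted p = 0.974), so 0 of 7 members were called at 4 wks, beside 1.75% of all probes. What raised the reference channel was not tested.

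**Figure D2:**
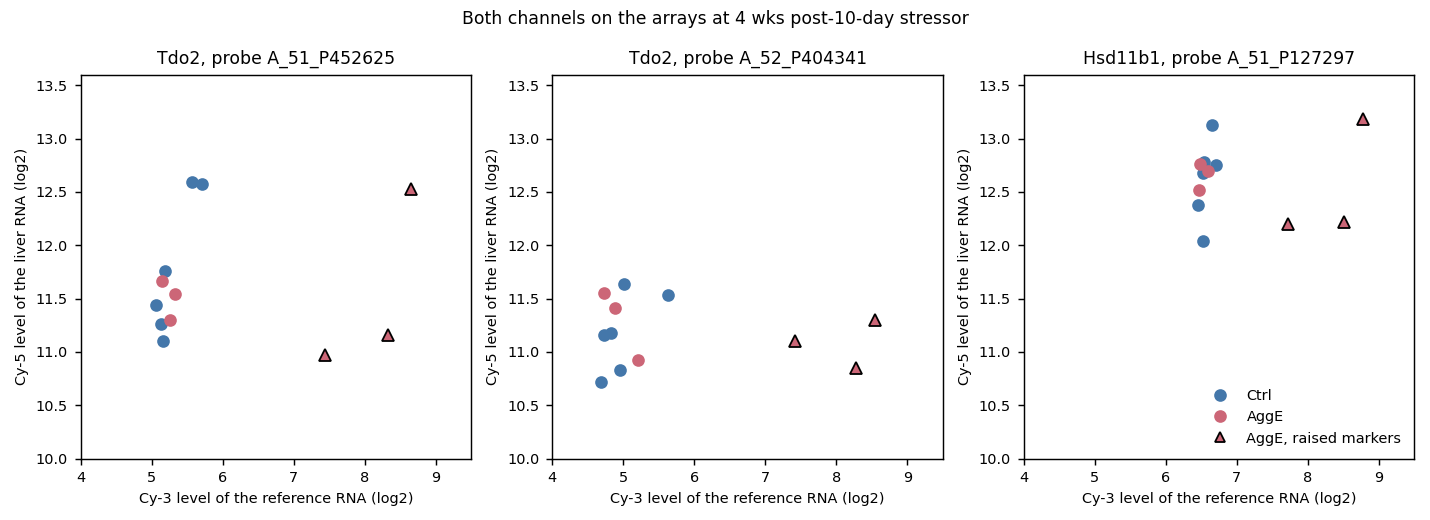
Log2 levels of the liver channel (Cy-5, vertical) against the reference channel (Cy-3, horizontal) at 4 wks post-10-day stressor, for both Tdo2 probes and for Hsd11b1, with 1 point per array (6 Ctrl, blue, and 6 AggE, red) and axes that do not start at 0. The 3 AggE arrays with raised hepatocyte markers in Cy-3 (triangles) stand to the right for each probe, at 7.44 to 8.65 for the first, while the liver levels of the groups overlap.

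The call also turned on single mice. Leaving out 1 array at a time at 4 wks, the Tdo2 log2 fold change ran from -1.025 to -0.665, and the call was lost without AggE replicate 2, 3 or 5 or without Ctrl replicate 3, 4 or 6. It was also lost with the slide as a random block (-0.762, limma adjusted p = 0.229; correlation of arrays of a slide 0.328) and as a fixed block (-0.637, limma adjusted p = 0.437). Within slide 9, which held AggE replicate 1 and Ctrl replicates 4 to 6, Tdo2 differed by -1 and Tat by -1.83, and that AggE array is among the raised ones. The summed Cy-5 signals of 5 Kupffer cell markers at 4 wks were 11.45 to 12.66 in Ctrl and 11.25 to 12.3 in AggE on the log2 scale. By ratio 4 of the 5 were lower in AggE (median log2 fold change -0.56), and 0 passed, with Cd5l at -1.12 (limma adjusted p = 0.0568) and Clec4f at -0.79 (limma adjusted p = 0.147). Of 3 biliary markers Epcam was lower (limma adjusted p = 0.023), on a probe well above background on 0 of 6 AggE and 1 of 6 Ctrl arrays, and did not pass without the raised arrays (limma adjusted p = 0.222). Of 5 hepatocyte markers 2 were higher and 3 lower by ratio, at -0.35 to 1.22. Limma called 1 of them higher unadjusted, beside 20.4% of all probes, and 0 adjusted. The part of all these markers in the Tdo2 value was not tested.

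At the earlier points Tdo2 showed no difference that passed. Its log2 ratios at 24 hrs post-5-day stressor were 5.32, 5.11, 5.36 and 5.23 in Ctrl and 5.42, 5.07, 4.94, 4.74 and 4.63 in AggE. Of the 5 AggE mice, 4 lay below every Ctrl mouse and replicate 1 above all of them, and the log2 fold change was -0.3 (-0.87 to 0.28), or -0.21 (limma adjusted p = 0.739) without the raised arrays. In the liver channel all 5 AggE mice, at 10.65 to 11.17, lay below all Ctrl mice, at 11.44 to 11.53. The share of all probes so separated was not counted. Liver channel means differed by -0.58, while the reference channel was higher by 0.85 in AggE. The value ran from -1.427 without normalization between arrays to 0.396 with the processed signals, and was -0.135 with Cy-5 alone normalized by itself, and 0 of these passed. At 1.5 wks the Ctrl mice were nearly equal, at 5.03 to 5.06, while AggE mice ran from 4.74 to 5.63. The log2 fold changes were -0.12 (-0.69 to 0.46) at 24 hrs post-10-day stressor, then 0.23 (-0.34 to 0.81) at 1.5 wks. A_52_P404341 gave -0.53 (SE 0.33) at 1.5 wks, opposite in sign to the standing probe. The correlation of the Tdo2 probes over the 39 arrays was 0.36.

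**Figure D3:**
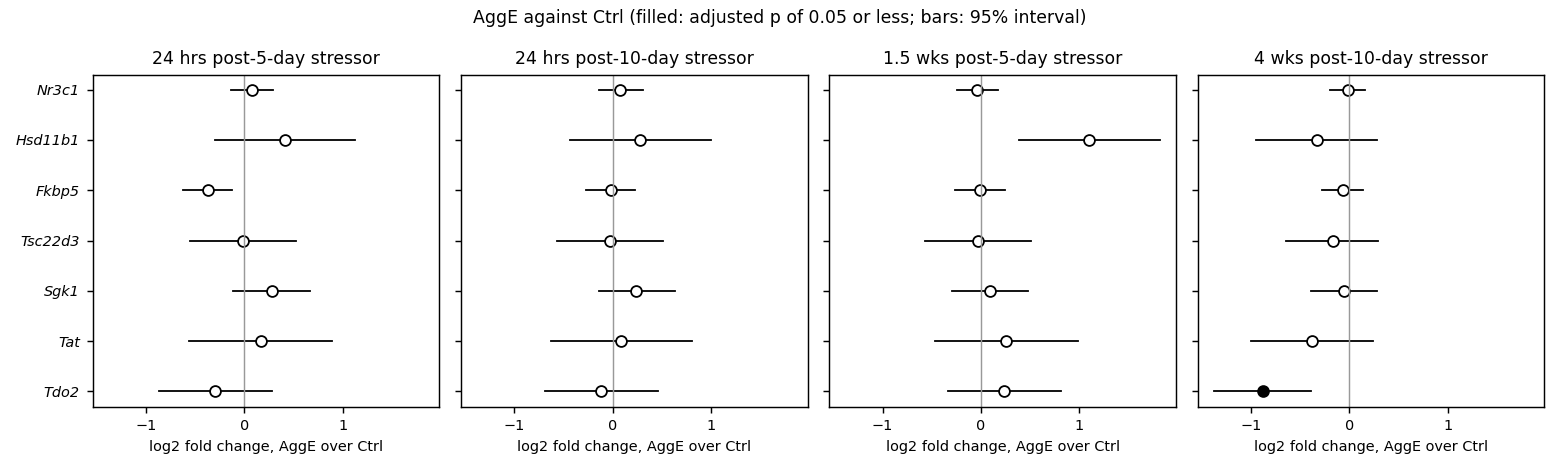
Log2 fold change of AggE over Ctrl (horizontal axes) with 95% intervals (bars) from the limma fit for the 7 measured members (vertical) at the 4 points. The filled point, with an adjusted p of 0.05 or less, is Tdo2 at 4 wks (-0.88), and every interval other than those of Tdo2 at 4 wks, Hsd11b1 at 1.5 wks and Fkbp5 at 24 hrs post-5-day stressor crosses 0. The points of Fkbp5 at 24 hrs post-5-day stressor and at 1.5 wks come from a probe that was well above background on 0 arrays, and are no measured fold.

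Whether the difference between AggE and Ctrl itself changed with regimen or rest was tested in the same fit. Between 5 and 10 days at 24 hrs, limma called 0 of 7 members adjusted and 0 unadjusted, beside 0.0287% and 6.95% of all probes. Between 24 hrs and 1.5 wks after 5 days, limma called 0 of 7 adjusted, beside 0.0779%, and 1 unadjusted, beside 8.07%, which was Fkbp5, whose probe was well above background on 0 arrays of those 4 groups. Between 24 hrs and 4 wks after 10 days, limma called 0 of 7 adjusted, beside 0.0574%, and 1 unadjusted (Tdo2, 0.77), beside 8.99%. Without the raised arrays the Tdo2 contrasts behind that value were -0.15 at 24 hrs and -0.44 at 4 wks. These tests share groups with the comparisons above. When the 8 groups were put in order of mean for each member, 2 of 49 neighbouring pairs passed 0.05 before adjustment in exact two-sided permutation tests. With 4 to 6 arrays a group no single pair could pass after adjustment over all 49, and the order was set by the same values, so this is a description. The pairs were Hsd11b1 in AggE at 4 wks over AggE at 1.5 wks and Tdo2 in AggE at 24 hrs post-5-day stressor over AggE at 4 wks.

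Across the 39 arrays the members were compared with each other, apart from Fkbp5, whose probe was well above background on fewer than 30 arrays. Pearson's r of log2 ratios between the other 6, over arrays with a value for both, ran from -0.42 (Nr3c1 and Sgk1) to 0.58 (Sgk1 and Tat). With group means removed these 2 pairs were at -0.4 and 0.33, and the highest r was 0.36 (Tat and Hsd11b1). The values are given as a description because the arrays share slides, normalization and groups. Among 6355 genes, those most like Hsd11b1 were Ctsh (r = 0.97), Fbp1 (0.94) and Mat1a (0.93), and with group means removed the values were 0.91, 0.81 and 0.71. For Tat they were Adh1 (0.83), Prodh2 (0.83) and Urah (0.82), and for Tdo2 Dpys (0.76), Efemp1 (0.72) and Lims1 (0.71). With group means removed the values were 0.67, 0.69 and 0.75 for Tat and 0.63, 0.54 and 0.67 for Tdo2. Genes nearest to Tsc22d3 were Smarcd2 (0.62), Sec61b (0.53) and Sphk2 (0.5), at 0.65, 0.62 and 0.59 with group means removed. Those most like Nr3c1 were Ghitm (0.84), Chchd1 (0.82) and Bnip3l (0.81), and those most like Sgk1 were Ociad1 (0.87), Cpne1 (0.85) and Ctbp1 (0.82). With group means removed they were at 0.65, 0.68 and 0.49 for Nr3c1 and at 0.76, 0.72 and 0.72 for Sgk1.

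Other genes of the pathway were counted in 4 lists. Of 21 measured genes known to be induced by glucocorticoids, outside the members, 2 rose at 24 hrs post-5-day stressor, beside 3.74% of all probes called, with a list median of -0.05 beside 0.001 for all probes. These were the metallothioneins Mt1 and Mt2, which bind zinc and copper and respond to metals and cytokines as well as to the hormone. Mt1 rose 13.9-fold (log2 fold change 3.8, SE 0.51, limma adjusted p = 2.52e-05) and Mt2 20.4-fold (4.35, SE 0.8, limma adjusted p = 0.00212). Both rose again at 24 hrs post-10-day stressor, Mt1 8.86-fold and Mt2 19.1-fold, where the list median was 0.08 and 0.0821% of all probes were called, and passed with the raised arrays left out. At 1.5 wks their log2 fold changes were -0.05 and -0.18 and at 4 wks -0.34 and -1.24, and 0 of the 21 genes were called at either point by limma, with 0 and 1 unadjusted, beside 0% and 3.38% of all probes adjusted and 2.32% and 20.4% unadjusted. The fall of the Mt1 difference from 24 hrs to 1.5 wks passed (3.85, limma adjusted p = 0.016) and that of Mt2 did not (4.53, SE 1.13, limma adjusted p = 0.158). Both passed from 24 hrs to 4 wks, Mt1 at 3.48 (limma adjusted p = 0.0237) and Mt2 at 5.49 (limma adjusted p = 0.0234).

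Among 12 genes of the receptor's chaperones and cofactors, 2 rose at 4 wks and 0 passed elsewhere, beside 3.38% of all probes called at 4 wks and 1.75% without the raised arrays. Hsp90ab1, a chaperone that holds the unbound receptor, rose 1.9-fold (log2 fold change 0.93, SE 0.27, limma adjusted p = 0.0463), and gave 1.24 (limma adjusted p = 0.0392) without the raised arrays. Nr3c2, the mineralocorticoid receptor, which also binds corticosterone, gave 0.2 (limma adjusted p = 0.0499), and 0.09 (limma adjusted p = 0.559) without them. Of 6 genes of steroid supply, transport and breakdown, Srd5a1, a 5-alpha-reductase that clears glucocorticoids, fell at 24 hrs post-5-day stressor to 0.567-fold (log2 fold change -0.82, SE 0.24, limma adjusted p = 0.0436). At that point 3.74% of all probes were called, and 0 others of the list were called at any point. Without the raised arrays Srd5a1 gave -0.84 (limma adjusted p = 0.032). For genes of these lists, called ones included, the other processing alternatives were not run. Of 12 measured genes of tyrosine and tryptophan breakdown beyond Tat and Tdo2, limma called 0 at any point. Before adjustment 2 were higher at 1.5 wks, beside 2.32% of all probes, and 0 passed at the other points, beside 17.8% at 24 hrs post-5-day, 2.88% at 24 hrs post-10-day and 20.4% at 4 wks. The medians of that list were 0.01, 0.07, 0.12 and 0.14 at 24 hrs post-5-day stressor, 24 hrs post-10-day stressor, 1.5 wks and 4 wks.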

How the data were processed

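Liver RNA (Cy-5) of 39 mice was hybridized with a reference RNA (Cy-3) on dual dye arrays. The authors deposited, for each spot and channel, the median intensity and that of its local background, read by Feature Extraction 11.5.1.1 without normalization. Processed intensity signals, background-corrected and dye-normalized within arrays by the authors' software, were also deposited. The log10 ratios of the deposited series table are Cy-5 over Cy-3 of those signals, with 0 for 10.7% to 48.9% of spots per array.

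Here median intensities were background-corrected (limma 3.58.1, normexp with an offset of 50), loess-normalized within and quantile-normalized between arrays in R 4.3.3, using statmod (1.5.0) and data.table (1.17.8). Outlier spots were set to missing, control spots dropped, and repeated spots averaged (245 probes). RefSeq probes with values on 20 or more arrays were kept, 24375 for 17016 genes, named through a RefSeq table used for names only. No array was a copy of another (0 pairs identical). Channel levels were quantile-normalized on mean brightness (Aquantile). Feature Extraction's own Cy-5 mark decided which probes were well above background.

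Means of the 8 groups, taken from the source field of the labels, were fitted in limma. AggE minus Ctrl contrasts and the differences among those contrasts used empirical Bayes shrinkage, Benjamini-Hochberg adjustment over all probes and a limit of 0.05. P-values measure the spread between arrays of a group, 1 array per mouse, and few arrays per group limit the precision. The fit without slides treated arrays of a slide as independent, although their estimated correlation was 0.328. Where no slide held both exposures, its p-values do not account for differences between slides. Genes named are the members by their brightest probe, the genes of 4 pathway lists that passed and the 5 measured hepatocyte markers. The 3 genes most like each member but Fkbp5 are also named, all well above background on 30 or more arrays. Bcl6, Got1 and the cell type markers Cd5l, Clec4f and Epcam were named after their values were seen. Members and lists were chosen with earlier results of these data known. Alternatives were other signals, offsets, scalings, probe rules, fits, blocks and left-out arrays. Leaving out the 5 arrays with hepatocyte markers over 1 log2 unit above the median array in Cy-3 was chosen after seeing the data.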

Additional observations from a re-analysis of the deposited data

Results flagged for a closer look

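Within groups of 4 to 6 arrays, 5 of 55 combinations of member and group held a mouse whose gap to the nearest other passed Dixon's limit, and chance gives about 1 in 20. Nr3c1 was at -0.57 in AggE replicate 1 of the 24 hr post-10-day group, and -0.22 in Ctrl replicate 6 of the 4 wk group, each the lowest of its group in log2 ratio. Sgk1 was at -2.14 in Ctrl replicate 4 at 24 hrs post-10-day stressor. AggE replicate 1 at 4 wks was lowest for Fkbp5, at -1.06, and for Tat, at 3.86, and this array had raised hepatocyte markers in Cy-3.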

How the results depend on the processing

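The count of members called stayed at 0 under each alternative in 6 of the 7 comparisons, and the 4 wk count did not stay at 1. It was 0 with the processed signals, an offset of 16, Cy-5 alone, the series table, the groups compared alone, the slide as a random block and, chosen after seeing the data, without the raised arrays, and 0 to 1 when 1 array was left out. Tdo2 at 4 wks was at -0.354, -1.242, -0.146, -0.382, -0.883, -0.762 and -0.435 in that order. Among the settings that kept the call it ran from -1.647 (without normalization between arrays, limma adjusted p = 0.0315) to -0.776 (mean over a gene's probes, limma adjusted p = 0.0499), with the smallest adjusted p, 0.02, under the replicate block. With the slide as a fixed block, which could not be fitted at 24 hrs, the gene called was Tat (-1.606) and Tdo2 was at -0.637. Counts over all probes moved more: at 24 hrs post-5-day stressor 912 as reported, 21 without normalization between arrays, 1527 with an offset of 16, 479 with the processed signals, 1165 with Cy-5 alone and 230 with the series table, and at 4 wks 825, 2398, 285, 9, 7 and 122. The causes were not tested.

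Member log2 fold changes turned sign under some settings, those away from 0 among them, and the cause was not tested. Fkbp5 values at 24 hrs post-5-day stressor and 1.5 wks, here and below, are differences between signals not well above background on any array, and no measured folds. With processed signals the values that turned were Nr3c1 -0.012 and Tdo2 0.396 at 24 hrs post-5-day stressor, and Tat -0.22 and Hsd11b1 -0.05 at 24 hrs post-10-day stressor. Later they were Nr3c1 0.164, Fkbp5 0.155 and Tdo2 -0.198 at 1.5 wks, and Sgk1 0.334 and Hsd11b1 0.153 at 4 wks. An offset of 16 gave Tsc22d3 0.008 and Tat -0.073 at the 24 hr points in turn. Without normalization between arrays, Tat was -0.536 and Hsd11b1 -0.443 post-5-day, Fkbp5 0.108, Tat -0.384 and Hsd11b1 -0.245 post-10-day at 24 hrs, and Nr3c1 0.008, Fkbp5 0.098 and Sgk1 0.333 at 4 wks. Cy-5 alone gave Nr3c1 -0.031 and Tsc22d3 0.04 at 24 hrs post-5-day, Nr3c1 0.041 and Fkbp5 0.001 at 1.5 wks, and Fkbp5 0.018, Tsc22d3 0.007, Sgk1 0.117, Tat 0.233 and Hsd11b1 0.161 at 4 wks. The series table gave Nr3c1 -0.075, Fkbp5 0.24 and Tat -0.161 at 24 hrs post-5-day, Fkbp5 0.073 and Tat -0.131 post-10-day, Nr3c1 0.211, Fkbp5 0.331, Tat -0.274 and Tdo2 -0.802 at 1.5 wks, and Sgk1 0.359 and Hsd11b1 0.149 at 4 wks. The mean over a gene's probes gave Nr3c1 -0.067 at 24 hrs post-5-day, Nr3c1 -0.014 and Tdo2 0.013 post-10-day, Fkbp5 0.144, Tsc22d3 0.04 and Tdo2 -0.146 at 1.5 wks, and Tsc22d3 0.034 at 4 wks. The slide as a random block gave Tat -0.082 at 24 hrs post-5-day, Fkbp5 0.056 at 1.5 wks and Nr3c1 0.122 at 4 wks, and as a fixed block Nr3c1 0.109, Sgk1 -0.081, Tat -0.582 and Tdo2 -0.153 at 1.5 wks and Nr3c1 0.368 at 4 wks. Without the raised arrays, Fkbp5 was 0.034, Tsc22d3 0.1 and Tat -0.067 at 24 hrs post-10-day, and Sgk1 0.079 and Tat 0.051 at 4 wks.

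Leaving out 1 array at a time, signs turned for Tsc22d3 (-0.103 to 0.054) and Tat (-0.016 to 0.359) at 24 hrs post-5-day, Fkbp5 (-0.093 to 0.06), Tsc22d3 (-0.285 to 0.145) and Tat (-0.067 to 0.299) post-10-day, Nr3c1 (-0.083 to 0.021), Fkbp5 (-0.054 to 0.041), Tsc22d3 (-0.345 to 0.134) and Sgk1 (-0.094 to 0.259) at 1.5 wks, and Nr3c1 (-0.114 to 0.036), Fkbp5 (-0.12 to 0.042) and Sgk1 (-0.129 to 0.028) at 4 wks. Hsd11b1 at 1.5 wks was above 0 in each, at 0.651 to 1.519.

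The replicate numbers do not pair the mice: deviations of 18 same-numbered pairs correlated at -0.42 to 0.49, with 5 over 0.1. With the replicate block the member counts were as reported (1 at 4 wks and 0 elsewhere), and values that turned sign were Tsc22d3 0.025 at 24 hrs post-5-day, Fkbp5 0.006 and Tsc22d3 0.003 post-10-day, and Fkbp5 0.017 and Tsc22d3 0.008 at 1.5 wks. Depth is limited where probes were not well above background, for Fkbp5 at 24 hrs post-5-day stressor and 1.5 wks. It is also limited at 1.5 wks for Nr3c1 (4 of 5 AggE and 2 of 4 Ctrl arrays well above background) and Sgk1 (2 of 5 and 2 of 4).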

Other observations

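Among other glucocorticoid-induced genes, chosen here after their values were seen, Bcl6, a transcriptional repressor, was at 1.05 in log2 fold change at 24 hrs post-10-day stressor (limma adjusted p = 1), and Got1, an aspartate aminotransferase, at 0.74 at 24 hrs post-5-day stressor, with a limma adjusted p of 0.0962. Neither passed the adjusted test.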
